A study of Mus musculus with 8 samples.

Results

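The oligoadenylate synthetase (OAS) family was examined in mouse CD8+ T cells treated with diisopropylamine dichloroacetate (DADA), an inhibitor of pyruvate dehydrogenase kinase. The 8 genes described here, *Oas1a*, *Oas1b*, *Oas1c*, *Oas1g*, *Oas2*, *Oas3*, *Oasl1* and *Oasl2*, were taken by symbol from the 22520 genes and assembled transcripts of the expression table. They were picked because their levels differ between DADA and DMSO in these same libraries, so their values are given as a description, without a test. CD8+ T cells from spleens of wild-type mice were stimulated without interruption with anti-CD3/CD28 antibodies plus IL-2, a culture model of T cell exhaustion. The cells received 40 µM DADA or the solvent DMSO from day 3 until harvest on day 6. Each group holds 4 bulk RNA-seq libraries. Both groups share the stimulation, and the compound is the only difference in treatment that the study describes. The labels write "control" and "model" under genotype for the DMSO and DADA groups but name no allele, and they give neither strain nor age (the study's methods list C57BL/6J among the mice used). The replicates are called biological, but no animal or culture is named for any of them, so the p-values below measure the spread between these libraries only.

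OAS proteins sense double-stranded RNA. The active enzymes then polymerise ATP into short oligoadenylates with an unusual linkage, called 2-5A, a second messenger that sets off the breakdown of RNA of virus and host. Type I and type III interferons, and more weakly interferon gamma, induce the family through the transcription factor ISGF3, which includes STAT2 and IRF9 and binds a promoter sequence called the interferon-stimulated response element (ISRE). A second element of interferon-induced promoters is the gamma-activated site (GAS).

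As the 8 genes were all higher with DADA, their promoters were searched for interferon response elements, and the stretches that hold an ISRE core are shown first. RefSeq promoter windows, 250 bases before to 50 bases after the start site, were matched for 6 of the 8 genes, *Oas1a*, *Oas1c*, *Oas1g*, *Oas3*, *Oasl1* and *Oasl2*. The ISRE core searched was GAAANNGAAA on either strand, and 4 of the 6 windows held it (*Oas1a*, *Oas1c*, *Oas1g* and *Oas3*), where 3.44% of all 32851 windows did. The windows of *Oasl1* and *Oasl2* held neither this core nor the GAS core, which says only that these letters are not in those windows. The GAS core TTCNNNGAA was found in the window of *Oas1a* alone among the 6, and in 8.30% of all windows. A stretch of 19 letters, CGGGAAATGGAAACTGAAA, singled out after the windows were read, occurred in 3 of all windows, those of *Oas1a*, *Oas1g* and *Oas1c*. It holds a pair of overlapping ISRE cores. In *Oas1c* it lies on the opposite strand, with 6 bases between its end and the annotated GENCODE start of *Oas1b*, which is transcribed head to head with *Oas1c*. The stretches below are printed 5′ to 3′ on the strand of the gene named, in the build GRCm38.p6, with the ISRE cores in capitals. Those of *Oas1a*, *Oas1g* and *Oas1b* end 1 base before the start site. The *Oas1a* stretch is chr5:120907526-120907585 on the minus strand, that of *Oas1g* is chr5:120887614-120887673 on the minus strand, that of *Oas1b* is chr5:120812575-120812634 on the plus strand, and that of *Oas3* is chr5:120777710-120777769 on the minus strand.
Oas1a: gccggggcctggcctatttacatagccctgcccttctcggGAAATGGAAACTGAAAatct
Oas1g: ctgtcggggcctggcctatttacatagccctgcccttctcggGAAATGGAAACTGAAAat
Oas1b: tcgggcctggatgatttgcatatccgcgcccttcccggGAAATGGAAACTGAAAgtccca
Oas3: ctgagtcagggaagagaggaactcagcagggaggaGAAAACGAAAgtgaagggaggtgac
The capitals of the first 3 stretches are identical. The *Oas3* stretch has a single core. A match of letters is a description of the sequence and was not tested as a binding site.

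The table gives FPKM, fragments per kilobase of transcript and per 1000000 mapped fragments, which can be compared between genes because it is scaled to length. A depth of 13670000 to 16370000 fragments per DMSO library and 15110000 to 18650000 per DADA library was estimated from the spacing of the lowest values, and this gives the approximate number of fragments behind a value. Summed markers of CD8+ T cells (*Cd8a*, *Cd8b1*, *Cd3d*, *Cd3e*, *Cd3g* and *Cd2*) reached 837 to 857 FPKM with DMSO and 1064 to 1094 FPKM with DADA, so the labelled cell type was borne out. Markers of myeloid cells summed to 0.0421 to 0.146 FPKM with DMSO and 0.142 to 0.421 FPKM with DADA, with *Adgre1* and *Csf1r* at 0 in all 8 libraries. Markers of plasmacytoid dendritic cells, a rich source of type I interferon, summed to 0 to 0.0616 FPKM and 0.0172 to 0.0467 FPKM. Markers of NK cells summed to 0 to 0.0959 FPKM and 0.144 to 0.346 FPKM, those of B cells to 2.59 to 3.54 FPKM and 2.36 to 3.09 FPKM with *Pax5* at 0, and those of CD4+ T cells to 16.1 to 17.2 FPKM and 15.2 to 15.7 FPKM, with 2 of their 3 markers under 1 FPKM in every library. Erythroid markers summed to 0.0920 to 0.400 FPKM and 0.0726 to 0.426 FPKM. The NK sums were thus higher with DADA, and the myeloid sums reached higher with DADA but their ranges overlapped, all at under 1 FPKM. The part of these cells in the values below was not tested.

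*Oas3* was the most abundant family member in both groups and *Oasl1* had the largest fold difference between DMSO and DADA among the genes with enough fragments for a ratio. Summed over the 8 genes, expression was 10.3 ± 0.382 FPKM with DMSO (SD, n = 4) and 74.7 ± 0.965 FPKM with DADA (SD, n = 4), a ratio of 7.25. The DMSO sums were 10.6, 10.3, 9.80 and 10.6 FPKM in replicates 1 to 4, and the DADA sums were 75.1, 75.9, 74.1 and 73.9 FPKM. The sums therefore differed between groups by far more than between replicates. In bulk RNA, more cells expressing a gene and more RNA per cell cannot be told apart.

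Each of the 8 genes was higher in every DADA library than in any DMSO library, where the same held for 23.2% of the 16167 genes above 0 in some library and for 28.4% of the 10666 genes tested. Of the 8 genes, 7 reached 1 FPKM in at least 4 libraries and entered the limma fit, and *Oas1g* did not. Nothing is read from these counts, since the genes were chosen from this contrast and *Oas1a*, *Oas2*, *Oasl1* and *Oasl2* passed the filter only through their DADA values. The median difference of the 7 genes was 1.98 on the log2(FPKM + 1) scale and that of all genes tested was -0.02. This gap too comes from the contrast by which the genes were picked and is description only.

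**Figure D1:**
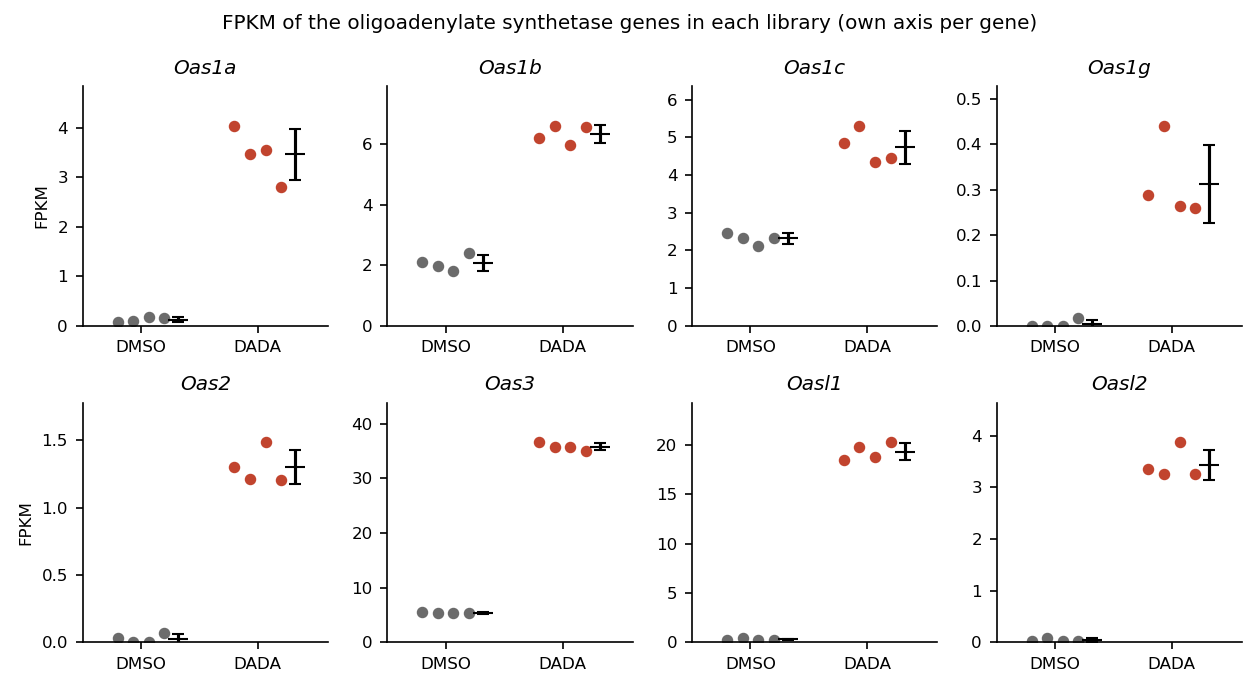
FPKM of each of the 8 genes in the 4 DMSO (grey) and 4 DADA (red) libraries, in replicate order, each panel with its own axis from 0; the bar beside each group is the mean ± SD. Every red point lies above every grey point of its panel, and the axes run from under 1 FPKM for *Oas1g* to over 30 FPKM for *Oas3*.

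Among the synthetases with catalytic activity, *Oas3* encodes the largest, built of repeated OAS units, and binds long double-stranded RNA. Its level was 5.63, 5.35, 5.39 and 5.33 FPKM in the DMSO libraries and 36.6, 35.8, 35.8 and 35.1 FPKM in the DADA libraries. The groups lay far apart and each was tight, with means of 5.42 ± 0.142 and 35.8 ± 0.606 FPKM (SD, n = 4) and a ratio of 6.61. On the log2(FPKM + 1) scale the difference was 2.52 (SE 0.0307). An estimated 348 to 413 fragments per DMSO library and 2556 to 3123 per DADA library stand behind these values, the most of any member.

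*Oas2* encodes the middle-sized enzyme, which also carries repeated OAS units and is anchored to membranes. It was listed at 0.0312, 0, 0 and 0.0712 FPKM with DMSO and at 1.30, 1.21, 1.48 and 1.21 FPKM with DADA. DMSO libraries 2 and 3 were at 0 and all 4 DADA libraries were just over 1 FPKM. No ratio is given, because the DMSO values rest on 0 to 4.09 estimated fragments, against 88.8 to 90.7 with DADA. The difference was 1.17 (SE 0.0682) on the log2(FPKM + 1) scale. It was 3.51 with a pseudocount of 0.1 and 1.90 with libraries rescaled to the same total. That total, 1000000, is above the 438299 to 456939 FPKM summed per library, so this rescaling also lessens the weight of the added 1. Scaling by the median ratio between libraries gave 1.17. The size thus depends on the pseudocount relative to these low values.

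*Oas1a* encodes the mouse enzyme closest in kind to human OAS1. Its levels were 0.0713, 0.0984, 0.178 and 0.162 FPKM with DMSO and 4.03, 3.47, 3.55 and 2.80 FPKM with DADA. DADA replicate 1 was highest and DADA replicate 4 lowest of the treated libraries, and even the latter was 15.7 times the highest DMSO value. The mean rose from 0.127 ± 0.0507 to 3.46 ± 0.509 FPKM (SD, n = 4), with 2.0 to 4.58 estimated fragments per DMSO library and 98.3 to 134 per DADA library. The difference was 1.98 (SE 0.0876) on the log2(FPKM + 1) scale and 3.99 with a pseudocount of 0.1. It was 2.78 with libraries rescaled to the same total, where the added 1 also weighs less. Scaling by the median ratio gave 1.98.

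*Oas1g*, a near-identical copy of *Oas1a*, was the lowest member in both groups. It was at 0 in DMSO replicates 1 to 3 and at 0.0178 FPKM in DMSO replicate 4, while the DADA libraries held 0.289, 0.441, 0.263 and 0.260 FPKM. No library reached 1 FPKM, and the DADA values rest on 7.87 to 16.1 estimated fragments. Transcripts of *Oas1a* and *Oas1g* were identical at 97.5% of 1860 aligned bases, and 54.1% of the stretches of 50 bases in *Oas1g* also occur in *Oas1a*. Likewise 57.6% of those in *Oas1a* occur in *Oas1g*, so the split of fragments between these genes is uncertain, while *Oas2*, *Oas3*, *Oasl1* and *Oasl2* shared no such stretch with another family member.

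*Oas1b* and *Oas1c* differed from the other members of the Oas1 group by their level in DMSO. *Oas1b* is known for flavivirus resistance in mice that carry a full-length allele, and the RefSeq annotation lists it as a transcribed pseudogene in the reference strain. Its levels were 2.10, 1.97, 1.80 and 2.42 FPKM with DMSO and 6.20, 6.60, 5.98 and 6.55 FPKM with DADA. Means were 2.07 ± 0.262 and 6.33 ± 0.296 FPKM (SD, n = 4), a ratio of 3.06 and a difference of 1.26 (SE 0.0663) on the log2(FPKM + 1) scale.

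*Oas1c*, which lies next to *Oas1b* and is read in the other direction, had the smallest difference of the 7 genes that entered the fit. It was at 2.47, 2.33, 2.13 and 2.34 FPKM with DMSO and at 4.84, 5.30, 4.35 and 4.44 FPKM with DADA. Means were 2.32 ± 0.141 and 4.73 ± 0.432 FPKM (SD, n = 4), a ratio of 2.04 and a difference of 0.79 (SE 0.0637) on the log2(FPKM + 1) scale. The ranges of *Oas1b* and *Oas1c* overlapped with DMSO, whereas with DADA each *Oas1b* value lay above each *Oas1c* value.

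The Oasl genes encode OAS-like proteins that end in ubiquitin-like domains. OASL1 has no synthetase activity and is known to hold back translation of the *Irf7* messenger RNA, whereas OASL2 has kept the activity. *Oasl1* was at 0.282, 0.408, 0.277 and 0.226 FPKM with DMSO and at 18.5, 19.8, 18.7 and 20.2 FPKM with DADA. It moved from below 1 FPKM to the second highest level of the family, with means of 0.298 ± 0.0771 and 19.3 ± 0.844 FPKM (SD, n = 4) and a ratio of 64.8. An estimated 7.16 to 14.6 fragments per DMSO library and 617 to 823 per DADA library stand behind it. The difference of 3.97 (SE 0.0561) on the log2(FPKM + 1) scale ranked 3 among all 10666 genes tested. The other fitted members ranked from 49 (*Oas3*) to 569 (*Oas1c*). These ranks come from the contrast by which the genes were picked and are description only.

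*Oasl2*, the neighbour of *Oasl1*, was at 0.0221, 0.0930, 0.0239 and 0.0296 FPKM with DMSO and at 3.35, 3.26, 3.87 and 3.26 FPKM with DADA. The lowest DADA value was 35.1 times the highest DMSO value, and the latter belonged to DMSO replicate 2 alone. The DMSO values rest on 1.02 to 4.75 estimated fragments and the DADA values on 182 to 189.9. The difference was 2.09 (SE 0.0657) on the log2(FPKM + 1) scale and 4.66 with a pseudocount of 0.1.

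The makeup of the family differed between the groups. With DMSO, *Oas3*, *Oas1c* and *Oas1b* together made up 95.2% of the summed FPKM, of which *Oas3* gave 52.6%, *Oas1c* 22.5% and *Oas1b* 20.05%. With DADA, *Oas3* and *Oasl1* together made up 73.8%, the share of *Oas3* being 47.96% and that of *Oasl1* 25.9%, up from 2.90% with DMSO. *Oas1c* fell to 6.33% and *Oas1b* to 8.47% of the sum although both were higher in FPKM. *Oas1a* and *Oasl2* each came to under 5% of the DADA sum, and *Oas2* and *Oas1g* to under 2%.

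The order of levels with DMSO was *Oas3*, then *Oas1c* and *Oas1b*, then *Oasl1*, then *Oas1a*, *Oasl2*, *Oas2* and *Oas1g*. Neighbours within the pair *Oas1c* and *Oas1b*, and each pair of neighbours among the last 4 genes, overlapped between libraries. With DADA the order was *Oas3*, *Oasl1*, *Oas1b*, *Oas1c*, *Oas1a*, *Oasl2*, *Oas2* and *Oas1g*, and only *Oas1a* and *Oasl2* overlapped as neighbours. Of the other family rows, *Oas1d*, *Oas1f* and *Oas1h* were listed at 0 in all 8 libraries and *Oas1e* had 0.0357 FPKM in DADA replicate 1 alone.

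**Figure D2:**
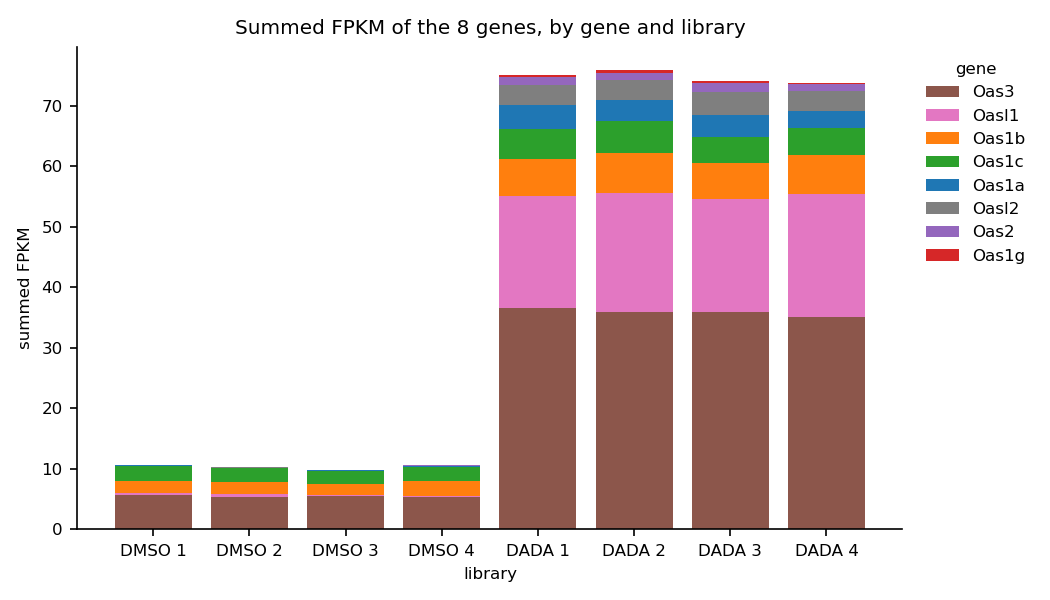
Summed FPKM of the 8 genes in each library, stacked by gene; bars start at 0. The DMSO bars end at 9.80 to 10.6 FPKM and the DADA bars at 73.9 to 75.9 FPKM, and the *Oasl1* segment is visible as a large block in the DADA bars only.

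Genes that remove 2-5A, and *Abce1*, were compared next. *Abce1*, which encodes a ribosome recycling factor, fell from 113 ± 1.57 to 86.3 ± 1.38 FPKM (SD, n = 4), a difference of -0.39 with a limma adjusted p of 1.27e-07. *Pde12* and *Akap7* encode phosphodiesterases that degrade 2-5A. *Pde12* fell from 7.93 to 7.26 FPKM (limma difference -0.11, adjusted p = 0.0175), a call that was lost when libraries were rescaled to the same total (-0.09, adjusted p = 0.0768). *Akap7*, with means of 2.11 and 2.30 FPKM in the DMSO and DADA groups, did not pass limma's test (adjusted p = 0.350). Of these 3 genes, 0 were called higher and 2 lower, where 35.3% of all genes tested were called lower.

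**Figure D3:**
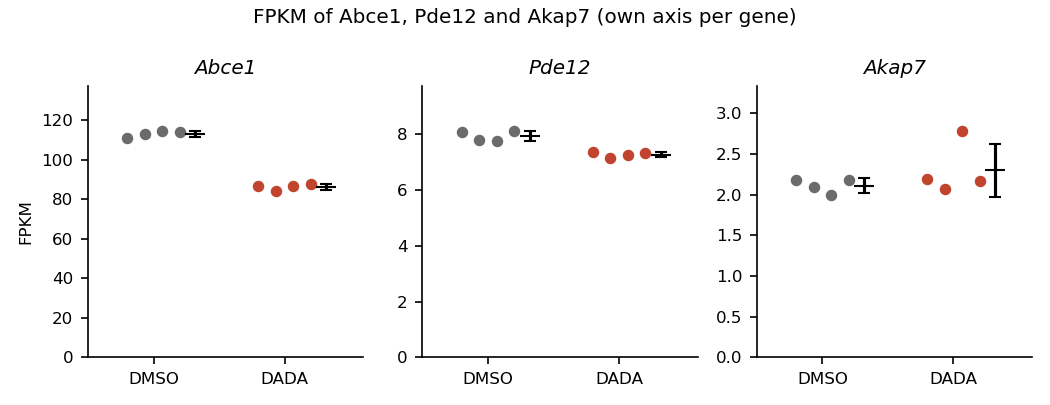
FPKM of *Abce1*, *Pde12* and *Akap7* in the 4 DMSO (grey) and 4 DADA (red) libraries, in replicate order, with the mean ± SD beside each group and an own axis from 0 per gene. The *Abce1* points of the groups lie apart, at means of 113 and 86.3 FPKM, while those of *Akap7* overlap.

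The OAS genes belong to a larger set of nucleic-acid sensors and interferon signalling genes. Of 51 listed pathway genes outside the family, 30 entered the limma fit. Of these, 18 rose, 9 fell and 3 did not pass the test, with a median difference of 0.20. The lists, which include *Abce1*, *Pde12* and *Akap7*, were chosen with earlier results of these data known. Their counts and p-values are therefore description and no independent support. Of all genes tested, 66.2% passed in either direction, 30.9% higher and 35.3% lower. The 3 genes that did not pass were *Akap7*, *Ifnar2* and *Ifngr2*, and 12 of the 51 were at 0 in every library.

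Among 9 sensors and adaptors tested, 7 rose. *Dhx58* (LGP2) rose from 1.98 to 18.9 FPKM, *Ifih1* (MDA5) from 2.29 to 11.1 FPKM and *Rigi* (RIG-I) from 4.57 to 15.6 FPKM, with limma adjusted p of 4.39e-11, 1.41e-09 and 8.6e-10. These helicases sense double-stranded RNA, as OAS proteins do. *Eif2ak2*, encoding the kinase PKR that halts translation on double-stranded RNA, rose by 1.66 on the log2(FPKM + 1) scale (limma adjusted p = 5.4e-10), and *Adar*, whose product edits such RNA, rose by 1.11 (limma adjusted p = 6.51e-09). *Zbp1* and *Sting1* also rose, the latter by only 0.12. *Mavs*, the adaptor of RIG-I and MDA5, fell by 0.22 and *Cgas*, a DNA sensor of the same enzyme superfamily as OAS, fell by 0.21 (limma adjusted p of 6.63e-04 and 0.00592). *Tlr3* was at 0 in all 8 libraries.

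Genes of ISGF3 rose. *Stat2* went from 11.9 to 32.4 FPKM and *Irf9* from 12.0 to 29.8 FPKM, with limma differences of 1.38 and 1.25 (adjusted p of 7.74e-11 and 5.22e-09). Upstream of it, the receptor gene *Ifnar1* fell from 41.4 to 31.9 FPKM (limma difference -0.37, adjusted p = 1.49e-06), *Jak1* fell by 0.16, *Tyk2* rose by 0.19, and *Ifnar2* was at 22.9 and 21.8 FPKM without passing the test (limma adjusted p = 0.216). *Ifnar1* and these ISGF3 genes therefore differed in direction. Of the genes of the interferon gamma arm, *Ifngr1* and *Jak2* rose, *Irf1* fell by 0.18 and *Ifngr2* did not pass.

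*Irf7*, whose messenger RNA is the known target of OASL1, rose from 1.15 to 29.5 FPKM (limma adjusted p = 2.68e-12), while *Irf3*, *Ikbke* and *Tbk1* changed by under 0.5 on the log2(FPKM + 1) scale, with *Irf3* and *Ikbke* falling. The feedback genes all rose. *Usp18*, which restrains signalling at the type I receptor, went from 0.637 to 30.5 FPKM and *Socs3* from 5.37 to 13.8 FPKM, and *Socs1* rose by 0.21. *Usp18* was at 0.494 to 0.919 FPKM with DMSO and passed the filter only through its DADA values.

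Among genes for the ligands, *Ifng* was abundant and rose from 404 to 649 FPKM (limma difference 0.68, adjusted p = 6.39e-08). The other ligand genes were near the limit of detection. Of the 20 interferon genes other than *Ifng*, 11 were at 0 in all 8 libraries. *Ifnb1*, *Ifna2* and *Ifna4* were at 0 in all 4 DMSO libraries and above 0 in all 4 DADA libraries, at 0.133 to 0.536, 0.310 to 0.867 and 0.421 to 1.10 FPKM. In the limma fit without a filter on low values their adjusted p were 0.00257, 4.53e-04 and 2.18e-04. Of all genes in that fit, 24.8% were called higher. These genes were singled out by that separation of the same values, so their p-values are description only. *Ifna1* and *Ifnz* also did not overlap between groups, at 0 to 0.0665 and 0 to 0.0159 FPKM with DMSO. With DADA they were at 0.0747 to 0.231 and 0.0335 to 0.0864 FPKM (limma adjusted p of 0.0185 and 0.0150 in that fit). No fold is given against groups listed at 0, and the Ifna genes are close copies of each other, whose sharing of fragments was not measured here.

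**Figure D4:**
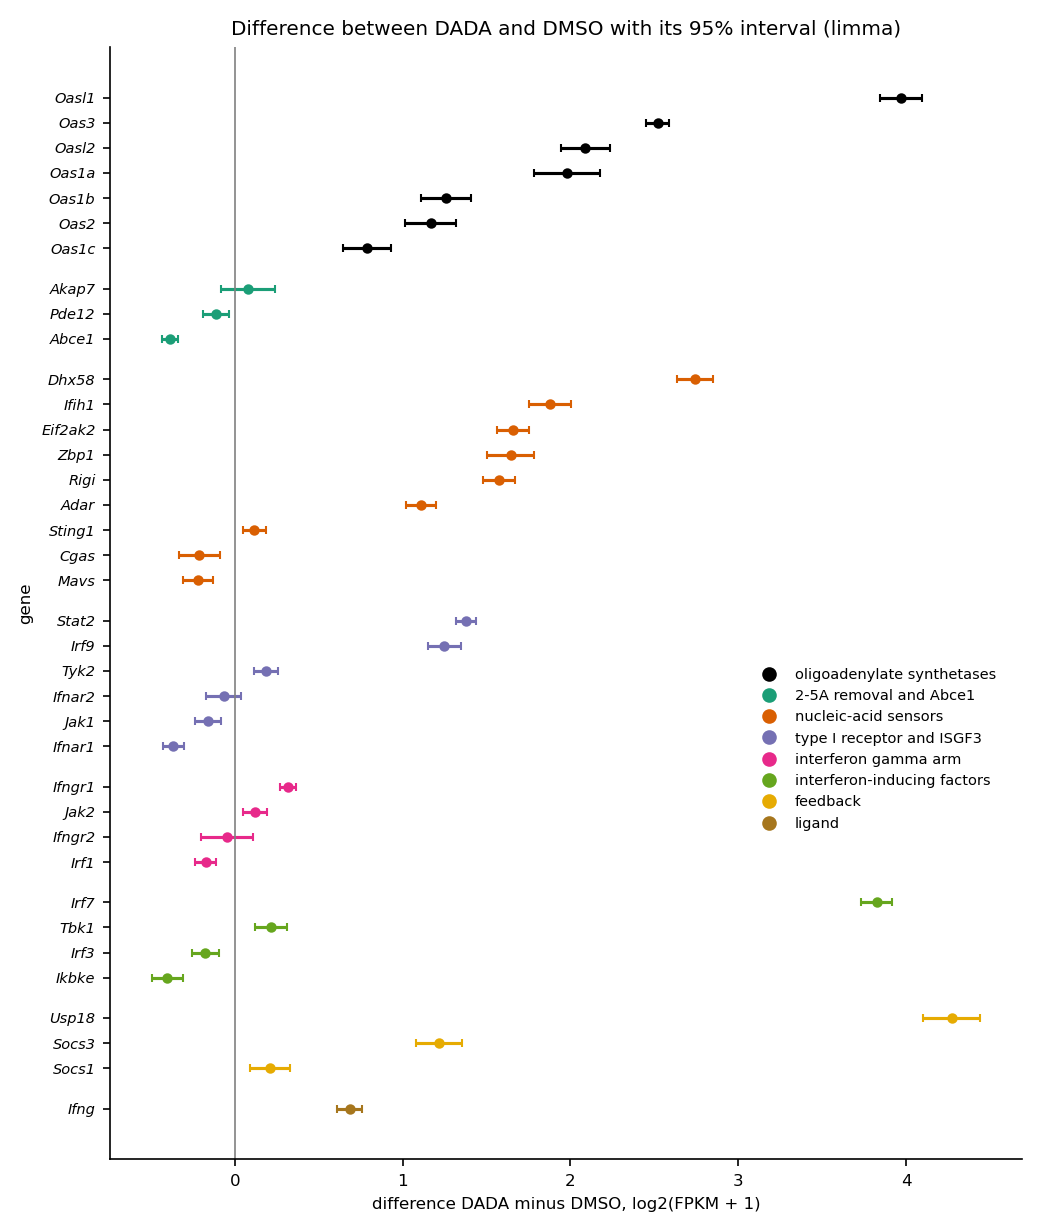
Difference between DADA and DMSO on the log2(FPKM + 1) scale with its 95% interval from limma, for 7 OAS genes (black, chosen from this contrast) and 30 pathway genes coloured by list. The OAS genes span 0.79 to 3.97, and *Irf7* and *Usp18* lie in the same range as *Oasl1*, while the interval of *Akap7* spans 0.

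The genes lie in 2 loci, and the annotation gives their order. One cluster holds, in order, *Oas2*, *Oas3*, *Oas1e*, *Oas1c*, *Oas1b*, *Oas1f*, *Oas1h*, *Oas1g*, *Oas1a* and *Oas1d*, and *Oasl2* and *Oasl1* sit side by side elsewhere. Unexpressed copies thus lie between expressed ones. Of the 16 nearest tested genes, 4 on each side of each locus, 9 rose and 5 fell (30.9% and 35.3% of all genes tested did), and 15 lay between -0.35 and 0.67 on the log2(FPKM + 1) scale. The exception was *Trafd1*, a gene for a regulator of innate immune signalling, which rose from 18.0 to 60.0 FPKM (limma difference 1.69, adjusted p = 1.01e-09). The flanking genes were looked up after the values of the family were known.

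**Figure D5:**
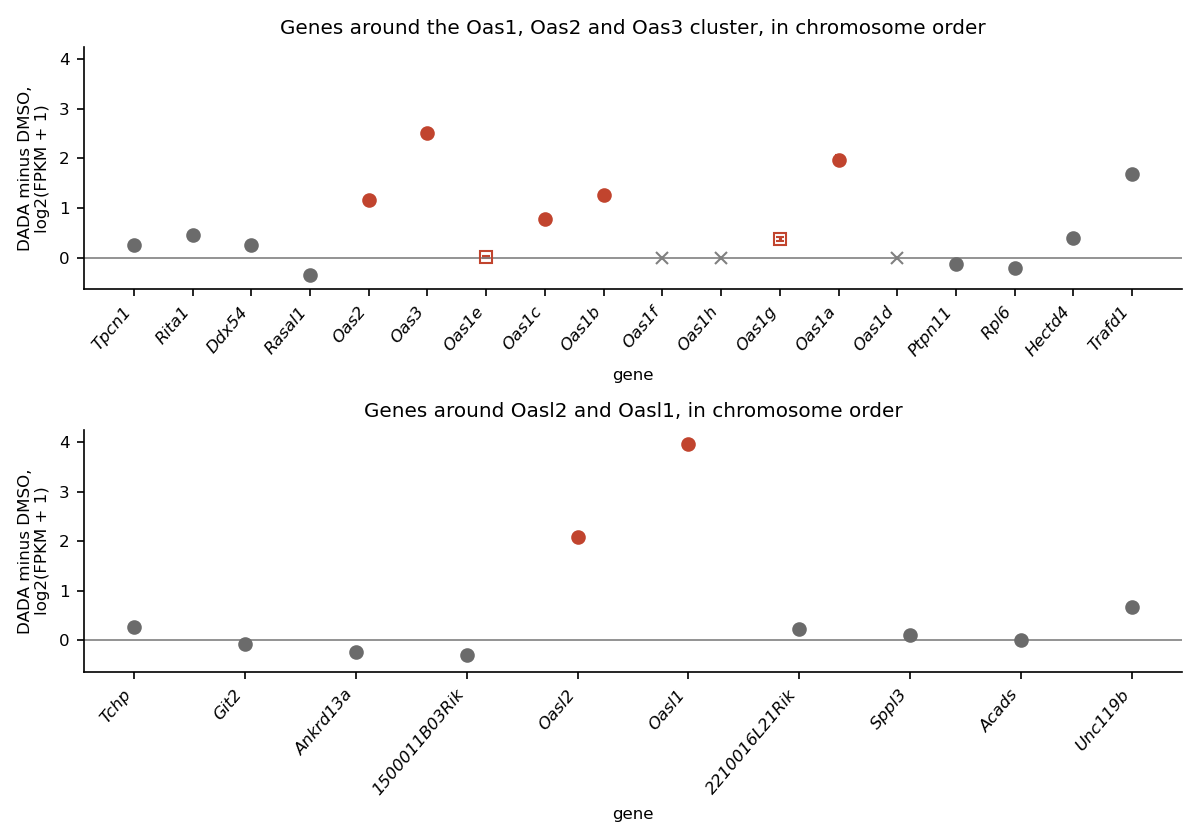
Difference between DADA and DMSO on the log2(FPKM + 1) scale (bars: SE, smaller than most symbols) for family genes (red) and the 4 nearest tested genes on each side (grey), in chromosome order but not to scale. Open squares come from the fit without a filter and crosses mark genes at 0 in all libraries; the flanking genes lie between -0.35 and 0.67 except *Trafd1* at 1.69.

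The genes closest to the family's mean pattern were sought among 8186 genes of at least 5 FPKM on average, by the root mean square difference over the 8 libraries between their log2(FPKM + 1), set to the DMSO mean, and that of the 7 members. The closest were *Ero1a* at 0.0514, *Tnfrsf8* at 0.0528, *Helz2* at 0.0599, *Ndrg2* at 0.0624 and *Ccng2* at 0.0635. *Ero1a*, an oxidase of the endoplasmic reticulum, went from 110.3 to 452 FPKM, and *Helz2*, a helicase gene, from 7.41 to 33.0 FPKM. *Tnfrsf8*, encoding CD30, went from 8.58 to 36.5 FPKM. With 2 groups, the measure mostly ranks genes by the size of their difference.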

How the data were processed

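Bulk RNA-seq of 4 DMSO and 4 DADA libraries was used. The table that the authors deposited holds FPKM, with a row per gene and a column per library. The submitters' processing notes list CASAVA 1.8.2, FastQC 0.11.9, HISAT2 2.0.5, StringTie 1.3.3, Picard 1.41 and SAMtools 0.1.18, and the builds GRCh38 and GRCm39, without roles. The labels and the study's methods name different library kits, and whether counting used strand is not given in the sources used here. FPKM were analysed as log2(FPKM + 1) for genes with at least 1 FPKM in at least 4 libraries, with limma 3.58.1 in R 4.3.3 (eBayes with trend, Benjamini-Hochberg adjustment over 10666 genes, call under 0.05), checked on simulated data. Differences are DADA minus DMSO and understate changes of low genes. FPKM holds no counts: 41.7% to 47.2% of low values lay within 0.1 of a whole fragment, where chance gives 20%, so depth was estimated and count tests were not used. Promoter windows are from RefSeq (GRCm38.p6) and transcript identities from GENCODE M21 (GRCm38), searched with Python 3.11.15, numpy 2.4.6 and pandas 2.3.3. The table's build may differ, so around the loci the annotation was used only for gene order. Transcript lengths from GENCODE M21 also entered the depth and the estimated fragments. The longest coding transcript of each member was used, so the fragment numbers are approximate. Named genes are the 8 members, the pathway lists by role and the 5 most similar genes. Some genes of the pathway and marker lists are not reported here and were left out of their counts. Members and lists were chosen with earlier results of these data known. Protein sequences were not analysed here. Alternatives covered the pseudocount, the filter, scaling, the variance trend, assembled transcripts, the replicate number as a block and leaving out each library.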

Additional observations from a re-analysis of the deposited data

Results flagged for a closer look

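In each group of 4 libraries, the gap of the highest or lowest library to its nearest neighbour was divided by the group's range, and 9 of 76 groups exceeded Dixon's critical value at 95%, where chance gives about 1 in 20. Among the OAS genes, the low *Oas1g* stood apart in DMSO replicate 4, with 0.0178 FPKM against 0 (ratio 1), and in DADA replicate 2, with 0.441 against 0.260 to 0.289 FPKM (ratio 0.839). The ratio of 1 was fixed by the libraries at 0, since any value above 0 would give it. *Oasl2* stood apart in DMSO replicate 2, with 0.0930 against 0.0221 to 0.0296 FPKM (ratio 0.894), and in DADA replicate 3, with 3.87 against 3.26 to 3.35 FPKM (ratio 0.846). In all 4 cases the DADA values stayed above the DMSO values. Among pathway genes, *Akap7* was high in DADA replicate 3, with 2.78 against 2.07 to 2.19 FPKM (ratio 0.832), and *Usp18* was high in DADA replicate 2, with 31.8 against 29.9 to 30.2 FPKM (ratio 0.861). *Tyk2* was high in DMSO replicate 3 (16.6 FPKM, ratio 0.887), while *Zbp1* was low in DMSO replicate 2 (13.6 FPKM, ratio 0.830) and *Irf3* in DMSO replicate 4 (27.0 FPKM, ratio 0.854).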

How the results depend on the processing

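Members kept a positive difference in all 114 alternative fits. In most of them this sign was fixed in advance, because every DADA value lay above every DMSO value. Only the scaling settings could have changed it, so nothing is read from this count. The size of the difference moved in 20 fits (pseudocount 0.1, equal totals or quantile scaling), and *Oas1g* had a value only without the filter. Equal totals were set to 1000000, so this setting also lessens the weight of the added 1. The summed ratio of 7.25 was 6.42 under quantile scaling and 7.13 to 7.32 without 1 library. Of all genes tested, 3602 were called higher and 3379 lower with equal totals, which turns their balance, and 3005 and 4116 under quantile scaling. Leaving out 1 library gave 3107 to 3200 genes called higher and 3593 to 3665 lower. Pathway genes called higher stayed at 18, and those called lower ranged from 9 to 10 without 1 library and were 8 with equal totals. Of 508 alternative fits of single pathway genes, 505 kept sign and call. *Akap7* turned to -0.054 under quantile scaling (limma adjusted p = 0.534), past the test in neither setting, *Ifnar2* was called lower without DADA replicate 2 (-0.11, adjusted p = 0.0239) and *Pde12* lost its call with equal totals, and the cause was not tested. Deviations from the group means correlated at -0.12 to 0.0953 between same-numbered libraries and at -0.27 to 0.134 between differently numbered ones. These few values cannot show whether same-numbered libraries share an animal or culture. With the replicate number as a block, 3251 genes were called higher and 3744 lower, against 3296 and 3768 without it, and of the pathway genes 18 and 9. Depth limits the DMSO levels of *Oas1a*, *Oas1g*, *Oas2* and *Oasl2*, which rest on a few fragments.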
